A study of Mus musculus with 69 samples.

Results

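The subunits of the mitochondrial respiratory chain that are encoded in the nucleus were followed in mouse liver after 3 compounds that can injure liver or lung. Members were taken by gene symbol: Ndufa, Ndufb, Ndufc, Ndufs and Ndufv genes of complex I, Sdha to Sdhd of complex II, Uqcr genes of complex III, the Cox4i to Cox8 genes of complex IV and Atp5 genes of complex V, without the Ndufaf assembly factors. This gave 68 of the 17306 probe sets of the array, each the only probe set of its gene: 34 for complex I, 4 for complex II, 6 for complex III, 15 for complex IV and 9 for complex V. The choice used symbols and no measured value.

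The livers came from male C57BL/6 mice, 10 weeks old, given a single dose by gavage. Acetaminophen (APAP) relieves pain and harms hepatocytes in overdose; its low, medium and high doses were 168.75, 225 and 300 mg/kg. For isoniazid (INZ), used against tuberculosis, the corresponding doses were 22, 44 and 88 mg/kg. The herbicide paraquat (PQ), which reacts with oxygen after taking up electrons, came at 12.5, 25 and 50 mg/kg. Livers of all doses were taken after 1 day and those of the high doses also after 2 days, with 5 vehicle mice for each day, and every group had 5 arrays, 1 per mouse, except PQ medium with 4 (69 arrays in 14 groups). The vehicle mice were labelled for APAP and served all 3 compounds, so the comparisons with vehicle share their controls; the labels do not say whether the compounds were given in the same vehicle. RNA came from the left lateral lobe.

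The respiratory chain sits in the inner mitochondrial membrane. Complex I takes electrons from NADH and complex II from succinate, coenzyme Q carries them to complex III, cytochrome c carries them on to complex IV, and complex V makes ATP from the proton gradient that complexes I, III and IV build. Hepatocytes are rich in mitochondria. The reactive product of APAP is known to bind mitochondrial proteins in hepatocytes, and paraquat can take electrons from complex I; the core subunits encoded in mitochondrial DNA were not analysed here.

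Promoter letters are shown for the 3 members of complex II that had an entry, because this complex had the lowest median change after APAP, and for 2 members of complex IV that differed in their call, Cox8a and Cox6a1. RefSeq's promoter table (GRCm38.p6) held 54 of the 68 members. The 250 bases before the start of the gene are printed 5′ to 3′ on the gene's strand. Capitals mark matches, on either strand, to GCGCANGC, the core of the site of NRF1, or to CCGGAAG, an ETS family site that GABP can bind; both factors are known regulators of respiratory chain genes. Matches may overlap, as the first pair in Cox6a1 does. AANATGGC for YY1 and AAGGTCA for ERR were searched in the same way and had no match in these 5 windows.
Sdha promoter, chr13:74350241-74350490, reverse strand: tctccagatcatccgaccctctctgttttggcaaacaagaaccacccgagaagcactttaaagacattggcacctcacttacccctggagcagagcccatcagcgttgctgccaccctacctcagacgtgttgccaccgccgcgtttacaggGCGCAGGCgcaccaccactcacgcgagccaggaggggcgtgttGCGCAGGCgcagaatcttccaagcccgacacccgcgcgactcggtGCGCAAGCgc
Sdhb promoter, chr4:140961021-140961270, forward strand: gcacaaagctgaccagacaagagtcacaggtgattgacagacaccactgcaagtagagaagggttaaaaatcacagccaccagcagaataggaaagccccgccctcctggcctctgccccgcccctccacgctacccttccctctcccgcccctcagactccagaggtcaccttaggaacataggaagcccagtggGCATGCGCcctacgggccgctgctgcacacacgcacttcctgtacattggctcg
Sdhd promoter, chr9:50603850-50604099, reverse strand: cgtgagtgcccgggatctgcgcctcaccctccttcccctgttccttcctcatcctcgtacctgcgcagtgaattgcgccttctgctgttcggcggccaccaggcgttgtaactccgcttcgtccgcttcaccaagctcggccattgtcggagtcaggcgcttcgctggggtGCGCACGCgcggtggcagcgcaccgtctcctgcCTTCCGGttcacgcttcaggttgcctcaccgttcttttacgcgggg
Cox8a promoter, chr19:7217617-7217866, reverse strand: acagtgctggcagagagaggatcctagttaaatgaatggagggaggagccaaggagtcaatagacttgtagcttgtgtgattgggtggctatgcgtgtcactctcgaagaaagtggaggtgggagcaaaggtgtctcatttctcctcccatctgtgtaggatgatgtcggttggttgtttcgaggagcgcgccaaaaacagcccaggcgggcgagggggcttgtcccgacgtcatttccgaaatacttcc
Cox6a1 promoter, chr5:115348959-115349208, reverse strand: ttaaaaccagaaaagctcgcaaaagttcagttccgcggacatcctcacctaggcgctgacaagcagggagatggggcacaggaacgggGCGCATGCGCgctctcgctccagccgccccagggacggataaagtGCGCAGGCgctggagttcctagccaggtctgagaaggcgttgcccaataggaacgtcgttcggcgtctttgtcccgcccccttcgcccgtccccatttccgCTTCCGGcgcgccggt
The NRF1 letters stood in 13 of the 54 member promoters (24.1%) and in 8.42% of all 27025 genes with an entry. They were found in Sdha, Sdhb and Sdhd, in 7 members of complex I, in 2 of complex V, in Cox6a1 and in no member of complex III. The ETS letters stood in 7 member promoters (13%) against 7.05% of all genes, the YY1 letters in 4 (7.41%) against 3.93% and the ERR letters in 3 (5.56%) against 4.05%. At the APAP high dose after 1 day, 11 of the 13 members with the NRF1 letters and 26 of the 41 without them were called lower, with median log2 changes of -0.25 and -0.19. Of all probe sets, 15.3% were called lower there. The difference between members with and without the letters was not tested. Cox6a1 held both kinds of letters and was not called, and Cox8a held neither and was called. A match describes these letters alone and is no evidence of binding.

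The labelled tissue was checked against 13 measured hepatocyte markers. In vehicle livers at 1 day Alb, which encodes albumin, stood at 14.24 ± 0.06 log2 units and Apoa1, an apolipoprotein, at 13.85 ± 0.01 (SD, n = 5), far above the array medians of 4.23 to 4.56. Most members were bright as well: 59 of the 68 lay above 8 log2 units in vehicle livers, a level chosen after the values were seen. Of these 59, 42 were called lower at the APAP high dose after 1 day. The share called lower there was 15.3% of all probe sets, and 21.1% in a fit without dim probe sets, which used another level. The other 9 members were dim, and 6 of them (Ndufa11, Ndufa4l2, Cox4i2, Cox6b2, Cox7b2 and Cox8b) had their highest group mean below the lowest array median. All 10 measured muscle markers were low in liver, between 2.45 for Myh1 and 3.97 for Mylpf in vehicle livers. Arrays differed within groups. The first replicates of APAP low, of APAP high at 1 day and of PQ high at 1 day were taken to stand apart. This choice followed no stated rule, and results that rest on these arrays are given with and without them. Dixon's test for a far array flagged member medians in those of APAP low and PQ high, but not in that of APAP high. The test also flagged replicates 1 and 4 of APAP medium and replicate 1 of INZ high at 1 day, which were not left out with them.

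**Figure D1:**
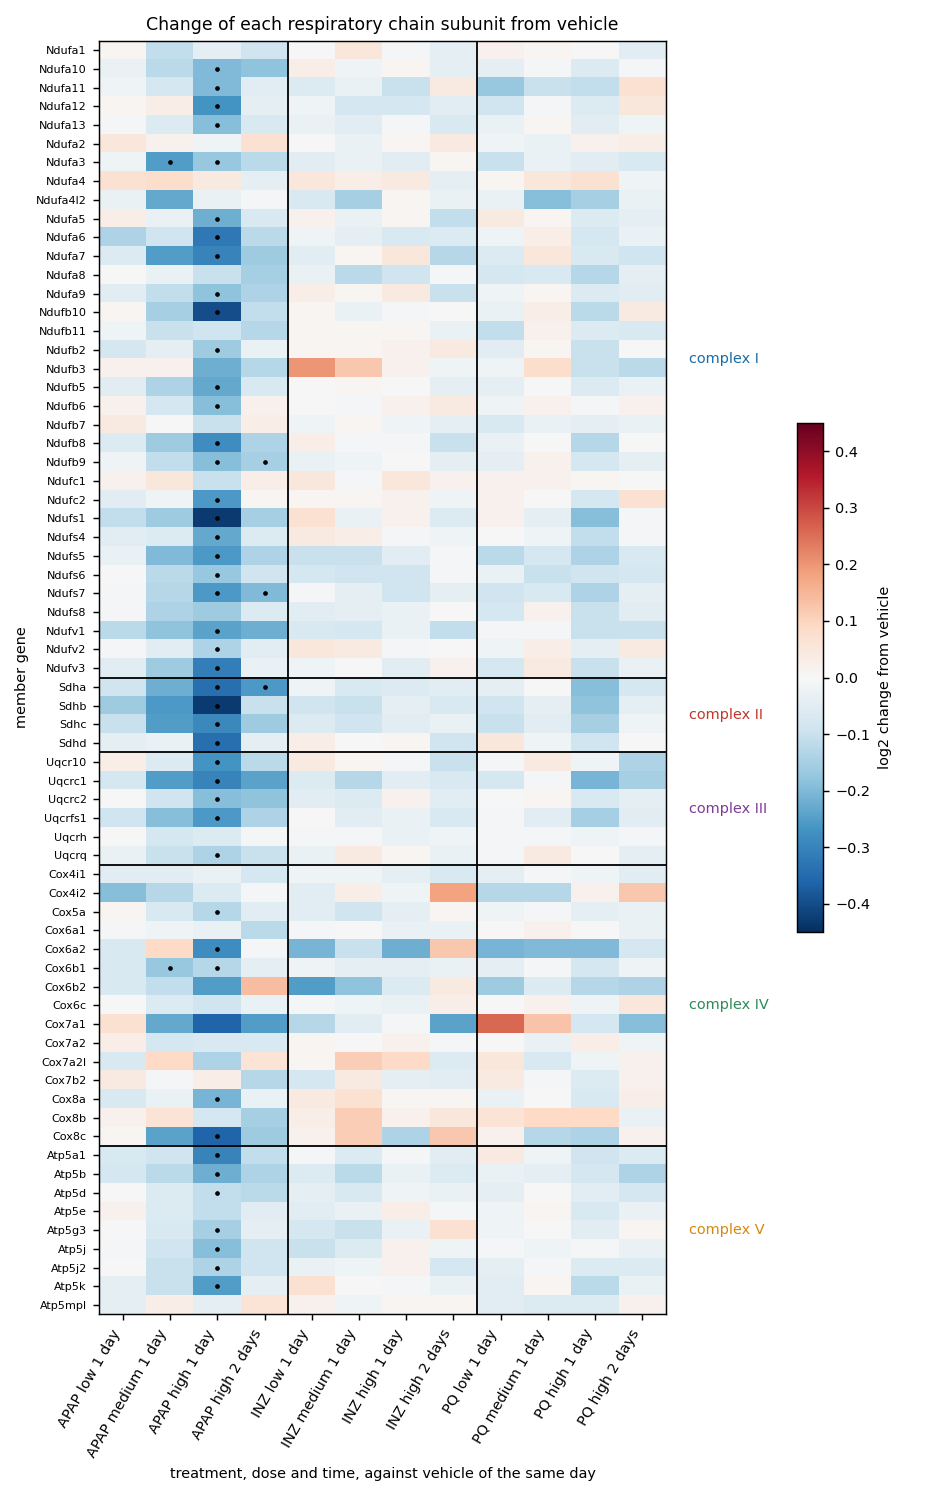
Log2 change of each of the 68 members (by complex, top to bottom) from vehicle of the same day in each of the 12 treated groups (across); blue is lower and red higher than vehicle, and a dot marks an adjusted p under 0.05. Dots mark 45 members at APAP high after 1 day, 2 at APAP medium, 3 at APAP high after 2 days and none after INZ or PQ.

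At the APAP high dose after 1 day, transcripts of members of all 5 complexes fell. Of the 68 members, 45 fell and 0 rose at an adjusted p under 0.05 in limma's moderated test, adjusted over all 17306 probe sets. Of all probe sets, 15.3% were called lower and 14.8% higher in the same comparison. The members' changes ran from -0.43 to 0.04 on the log2 scale with a median of -0.19, against a median of -0.045 over all probe sets, and 66 of the 68 were below 0. The changes were small: Sdhb, which fell most with Ndufs1, kept 74.1% of its vehicle signal. The group's arrays lay entirely below the vehicle arrays for 14 members, where 4.21% of all probe sets did so. For 34 more members 4 of the 5 arrays lay below every vehicle array, a count that was not made over all probe sets.

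The spread among the APAP high livers was wider than among vehicle livers, and the test shares 1 spread over all 14 groups. With only the 10 arrays compared, 0 members were called (smallest adjusted p 0.064), with 18 probe sets called in all; 28 were called with only the APAP and vehicle arrays, and 27 after quantile normalization. In bulk liver, fewer cells of a type and less RNA per cell cannot be told apart.

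**Figure D2:**
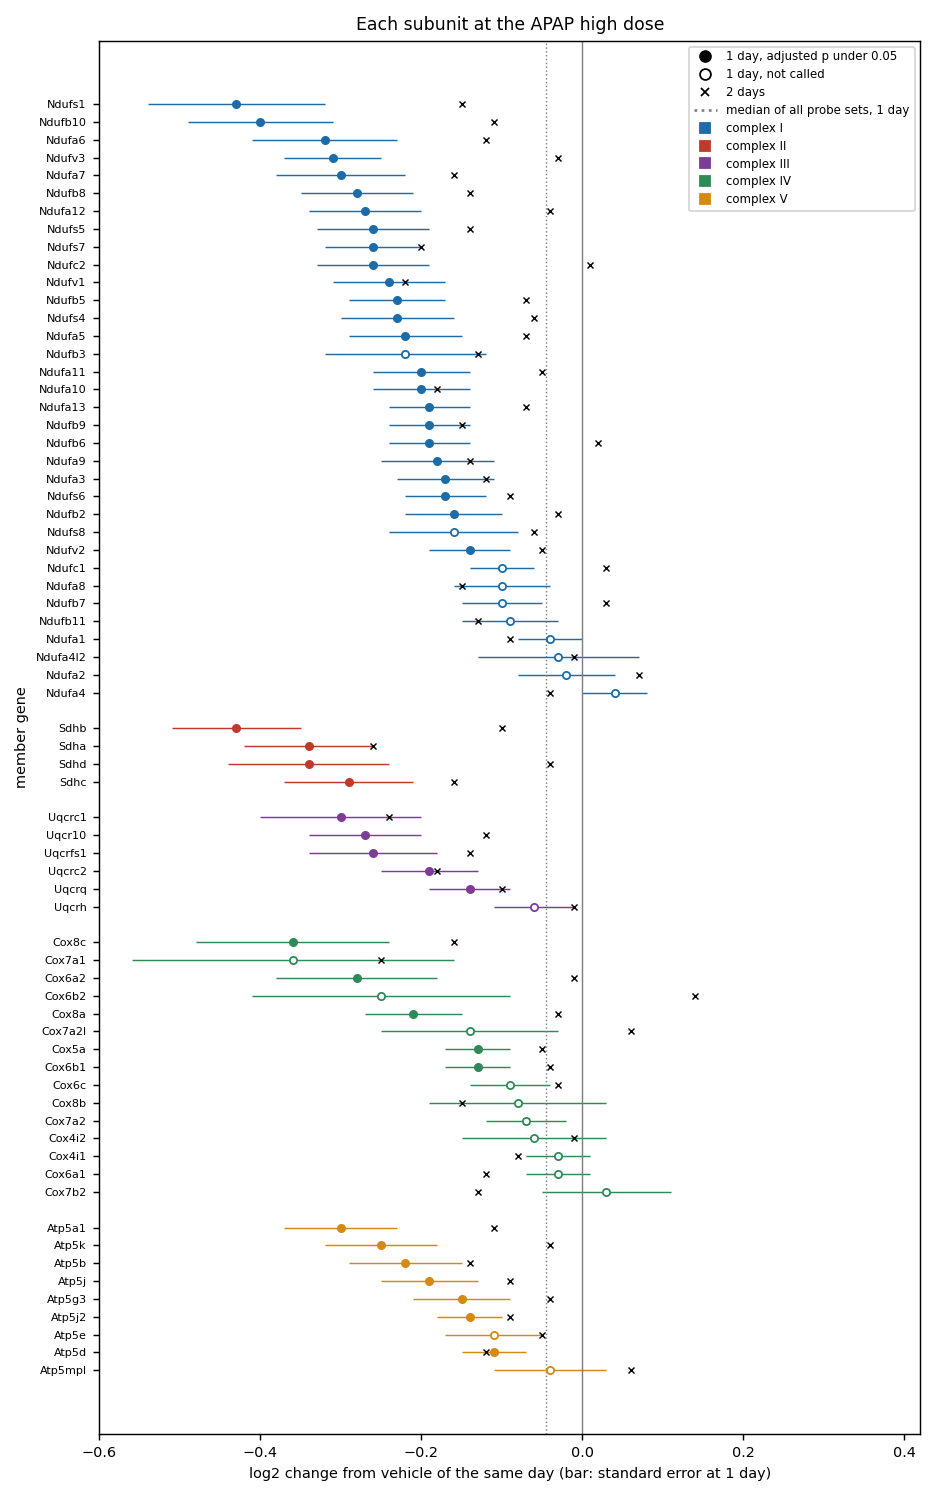
Log2 change from vehicle of each member at the APAP high dose, by complex: circles with standard errors for 1 day (filled where the adjusted p was under 0.05), crosses for 2 days, and a dotted line at the median of all probe sets at 1 day. The 4 members of complex II lie between -0.43 and -0.29 at 1 day, and most crosses lie closer to 0 than their circles.

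In complex I, 24 of 34 members fell and 0 rose at the APAP high dose after 1 day, with a median of -0.19. The core subunits that carry flavin or iron-sulphur clusters or bind quinone had 4 of 5 measured members called. Ndufv3, an accessory subunit at the NADH-binding end, had 11.96, 11.97, 11.91, 11.92 and 11.95 in the vehicle livers and 11.76, 11.55, 11.55, 11.81 and 11.51 in the APAP high livers. The groups did not overlap, and Ndufv3 fell by 0.31 ± 0.06 (SE; limma adjusted p = 0.00058). Ndufs7, a core subunit whose iron-sulphur cluster hands electrons to quinone, ran from 10.72 to 10.85 in vehicle and had 10.67, 10.35, 10.46, 10.61 and 10.46 after APAP. These arrays again lay below every vehicle array, a change of -0.26 ± 0.06 (limma adjusted p = 0.0017).

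Ndufb10 and Ndufb9 are accessory subunits of the membrane arm. Ndufb10 stood at 11.14, 10.35, 10.61, 10.81 and 10.56 in the APAP high livers against 11.02 to 11.21 in vehicle, so the first replicate lay within the vehicle range and the other 4 below it. Its change was -0.40 ± 0.09 (limma adjusted p = 0.0014). Ndufb9 had 12.14, 11.84, 11.86, 11.88 and 11.85 against 12.08 to 12.12, with the first replicate above every vehicle array and the other 4 below, and fell by 0.19 ± 0.05 (limma adjusted p = 0.002). Ndufs1, the largest iron-sulphur subunit of the complex, showed the same order of arrays with 10.17, 9.34, 9.54, 9.86 and 9.41 against 9.99 to 10.20 in vehicle. It fell by 0.43 ± 0.11 (limma adjusted p = 0.0023).

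Not all of complex I was lower. Ndufa4, a subunit first assigned to complex I and later found in complex IV, had means of 12.62 ± 0.09 after APAP and 12.58 ± 0.06 in vehicle, a change of 0.04 (limma adjusted p = 0.55). Its isoform Ndufa4l2 lay below the array medians in both groups, at 3.85 ± 0.13 and 3.88 ± 0.19. The changes of Ndufa1 (-0.04) and Ndufa2 (-0.02) were not called. Ndufb3 had the largest change among the uncalled members of the complex, -0.22 ± 0.10 with an adjusted p of 0.088 in limma, and its arrays ran from 8.36 to 9.04 against 8.60 to 8.95 in vehicle. Ndufa11 was called lower at -0.20, from 4.21 ± 0.03 to 4.02 ± 0.09, which are levels below the array medians; the vehicle mean of the second day was 4.08 ± 0.03.

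All 4 members of complex II, which oxidises succinate in both the respiratory chain and the tricarboxylic acid cycle, fell at the APAP high dose after 1 day, with a median of -0.34. Sdhb, the iron-sulphur subunit, had 12.50, 12.42, 12.45, 12.41 and 12.45 in vehicle livers and 12.37, 11.70, 11.90, 12.16 and 11.94 after APAP. No APAP array reached a vehicle array, and Sdhb fell by 0.43 ± 0.08 (limma adjusted p = 0.00065). Sdha, the flavin subunit that binds succinate, had 11.66, 11.18, 11.24, 11.47 and 11.17 against 11.63 to 11.80, a change of -0.34 ± 0.08 (limma adjusted p = 0.0015). Only the first replicate of Sdha reached the vehicle range.

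The membrane anchors Sdhc and Sdhd fell by 0.29 ± 0.08 and 0.34 ± 0.10 (limma adjusted p = 0.0057 and 0.0062). Sdhc stood at 10.02, 9.72, 9.95, 10.03 and 9.77 after APAP, below all vehicle arrays of 10.15 to 10.23. Sdhd stood at 10.77, 10.01, 10.25, 10.46 and 10.15 against 10.59 to 10.72, so its first replicate was above the vehicle range and the other 4 below. Replicate 1 was the highest of the APAP livers for Sdha, Sdhb and Sdhd and lay next to replicate 4 for Sdhc.

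In complex III, 5 of 6 members fell, with a median of -0.23. The core proteins Uqcrc1 and Uqcrc2 and the Rieske iron-sulphur protein Uqcrfs1, which passes electrons towards cytochrome c, were all called. Uqcrc1 had 10.97, 10.66, 10.67, 10.93 and 10.83 against 11.05 to 11.18 in vehicle, with no overlap, and fell by 0.30 ± 0.10 (limma adjusted p = 0.015). Uqcrfs1 had 11.08, 10.49, 10.81, 11.02 and 10.76 against 11.01 to 11.17, so 2 of its 5 arrays lay in the vehicle range, and it fell by 0.26 ± 0.08 (limma adjusted p = 0.0077). Uqcrc2 and the small subunit Uqcr10 changed by -0.19 ± 0.06 and -0.27 ± 0.07 (limma adjusted p = 0.0094 and 0.0054). Uqcrh, the hinge protein beside cytochrome c1, was the uncalled member at -0.06 ± 0.05 (adjusted p = 0.37 in limma). Cyc1, which encodes cytochrome c1 of the same complex and falls outside the symbol rule, fell by 0.35 ± 0.07 from 11.70 ± 0.03 to 11.35 ± 0.18 (limma adjusted p = 0.00062).

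Complex IV had 5 of 15 members called lower and a median of -0.13. Among its 8 bright members 3 were called, all of them structural subunits. Cox8a had 11.05, 10.75, 10.83, 10.96 and 10.75 against 11.02 to 11.14 and fell by 0.21 ± 0.06 (limma adjusted p = 0.0074), with only the first replicate in the vehicle range. Cox5a and Cox6b1 each fell by 0.13 ± 0.04 (limma adjusted p = 0.018 for both). Cox4i1, the common form of the largest nuclear subunit, had 12.32, 12.16, 12.26, 12.18 and 12.24 against 12.20 to 12.30. The groups overlapped throughout, and its change was -0.03 ± 0.04, with a 0.64 adjusted p in limma. The changes of Cox6a1 (-0.03), Cox7a2 (-0.07), Cox6c (-0.09) and Cox7a2l (-0.14), a factor of supercomplex assembly, were not called.

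The isoforms of complex IV that are best known from other tissues were dim in liver. Cox6a2, Cox7a1 and Cox8b, forms of heart and skeletal muscle, had vehicle means of 4.80 ± 0.10, 4.46 ± 0.33 and 3.10 ± 0.10, against 13.33 ± 0.05 for the probe set of the liver form Cox6a1, 12.16 ± 0.03 for Cox7a2 and 11.08 ± 0.05 for Cox8a; levels of different probe sets are not comparable beyond their distance from the array medians. The lung form Cox4i2 and Cox7b2 lay below 3 log2 units in vehicle. Of these dim forms Cox6a2 and Cox8c were called lower, by 0.28 ± 0.10 and 0.36 ± 0.12 (limma adjusted p = 0.03 and 0.023). Cox6a2 stood at 4.54 ± 0.16 in the vehicle livers of the second day, close to the 4.51 ± 0.09 of the APAP high livers, and with the vehicle arrays of both days its change was -0.16 (adjusted p = 0.19 in limma). Cox7a1 stood at -0.36 ± 0.20 and Cox6b2, a form known from testis, at -0.25 ± 0.16, and neither was called (adjusted p = 0.15 and 0.22 in limma).

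In complex V, 7 of 9 members fell, with a median of -0.15. The catalytic head proteins Atp5a1 and Atp5b fell by 0.30 ± 0.07 and 0.22 ± 0.07 (limma adjusted p = 0.0022 and 0.012). Atp5a1 had 11.93, 11.34, 11.42, 11.66 and 11.40 against 11.79 to 11.89, with the first replicate above the vehicle range and the rest below. Atp5b had 12.64, 12.37, 12.41, 12.58 and 12.48 against 12.64 to 12.83, and at full precision its arrays lay below every vehicle array. The membrane subunit Atp5k fell by 0.25 ± 0.07, the peripheral stalk subunit Atp5j by 0.19 ± 0.06 and the c ring gene Atp5g3 by 0.15 ± 0.06 (limma adjusted p = 0.0059, 0.014 and 0.045). Atp5e, of the central stalk, had a change of -0.11 ± 0.06 and was not called (adjusted p = 0.13 in limma).

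**Figure D3:**
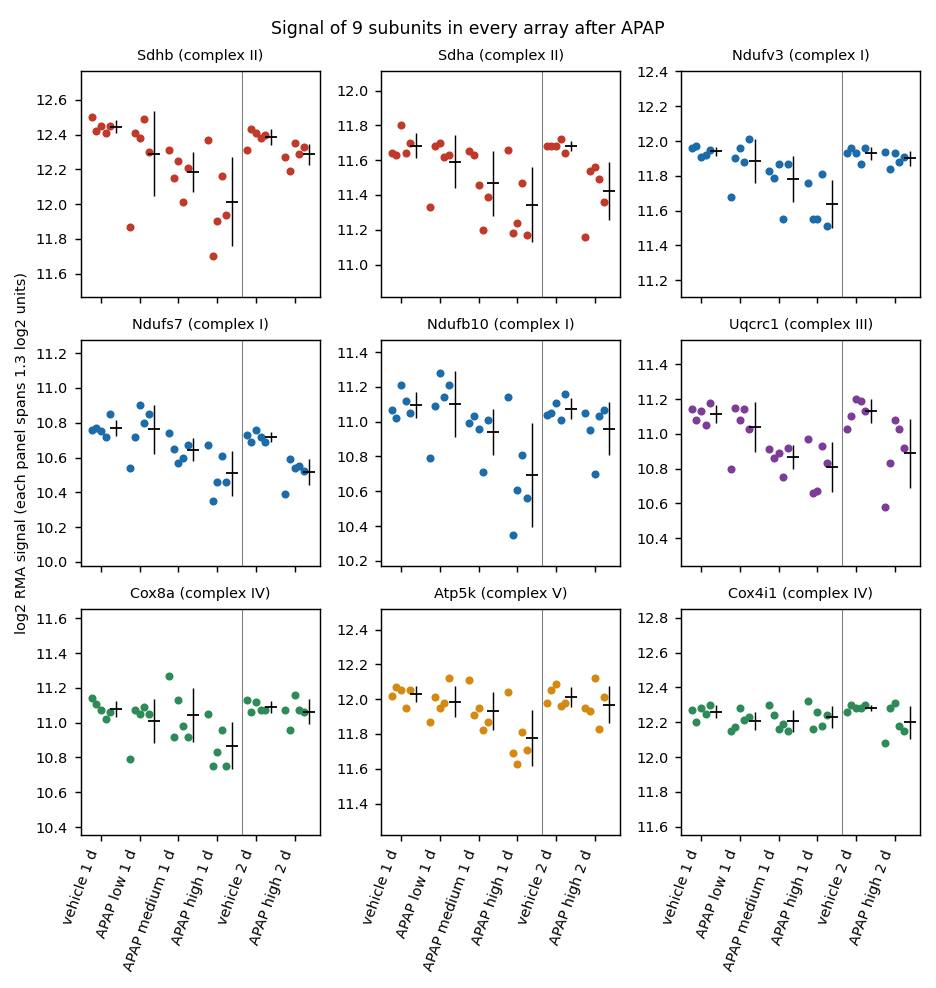
Log2 signal of 9 members in every array (points) of the vehicle and APAP groups at 1 day and, right of the line, at 2 days, with mean and SD beside them. Sdhb, Ndufv3, Ndufs7 and Uqcrc1 of APAP high at 1 day lie below every vehicle array, and Cox4i1 overlaps vehicle in all groups.

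The 5 livers of the APAP high group differed from each other along the same line in every complex. The median shift of all members from the vehicle mean was -0.00, -0.33, -0.24, -0.14 and -0.25 in replicates 1 to 5, and that of complex II was -0.05, -0.58, -0.43, -0.21 and -0.51. The first replicate was close to vehicle and the other 4 were lower. Without the first replicate 49 members were called and the median was -0.25. Without replicate 2 the count was 24, and without replicate 3 or replicate 5 it was 33. No share of all probe sets is given for these fits, so the counts do not show a swing particular to the members. Complex II had the lowest median of the 5 complexes with all arrays and without any 1 of the 10, and complex IV the highest, with complex V at the same -0.14 without replicate 4; the order of complexes was not tested.

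Markers of other cells also changed in this comparison, where 15.3% of all probe sets were called lower and 14.8% higher. Of 13 monocyte and macrophage markers 8 rose and 0 fell at the APAP high dose after 1 day, and their median shift was -0.12, 1.01, 1.33, 0.74 and 1.61 in replicates 1 to 5. Of 10 neutrophil markers 7 rose, among them S100a8 by 4.27 ± 0.86 (limma adjusted p = 0.00081). Of 13 hepatocyte markers 2 rose (Fgb and Ahsg) and 2 fell (Rbp4 and Apoa2), the list's median change was -0.01, and its median shift in the 5 livers was 0.04, -0.24, 0.05, 0.01 and 0.00. Replicate 2 had the lowest members, replicate 5 the highest macrophage markers, and replicate 1 was near vehicle for both. Of 10 endothelial markers 4 rose, among them Lyve1 by 1.42 and Pecam1 by 0.87, and Clec4g fell by 0.41. Of 12 stellate cell and matrix markers 5 rose and 2 fell, and of 10 Kupffer cell markers Marco rose by 2.63 and Clec4f fell by 0.46. Of 4 erythroid markers Alas2 fell by 1.13 and Car1 fell by 1.95, of 5 cholangiocyte markers Sox9 rose by 1.84, and of the 10 dim muscle markers Mylpf and Tnni2 fell by 0.41 and 0.21; 0 of 4 adipocyte markers were called, with 1 at an unadjusted p under 0.05. The part of other cells in the lower member signals was not tested.

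**Figure D4:**
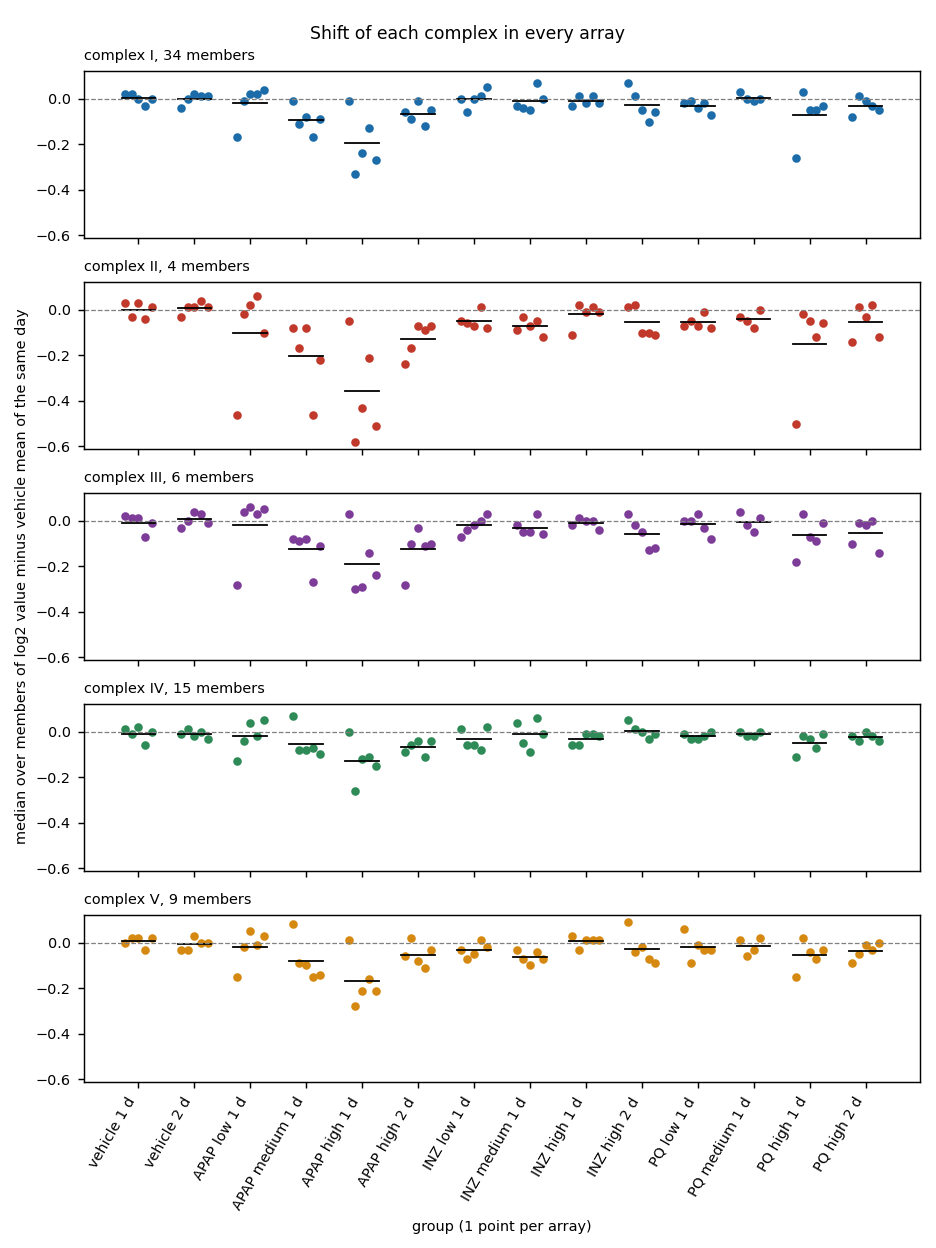
Median over the members of each complex of the log2 value minus the vehicle mean of the same day, for every array (points, with the mean of each group as a bar). Complex II lies lowest in APAP high at 1 day (-0.58 to -0.05), and single arrays of APAP low (-0.46), APAP medium (-0.46) and PQ high at 1 day (-0.50) lie at similar values.

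At the APAP medium dose after 1 day, 2 members fell and 0 rose, where 0.0693% of all probe sets were called lower. Ndufa3, a small accessory subunit of complex I, had 12.10, 11.94, 12.19, 12.20 and 12.19 against 12.25 to 12.49 in vehicle and fell by 0.25 (limma adjusted p = 0.04). Cox6b1 had 12.19, 12.30, 12.39, 12.43 and 12.44 against 12.46 to 12.56 and fell by 0.17 (limma adjusted p = 0.049). Neither overlapped vehicle. Both missed the threshold with only the arrays compared (adjusted p = 0.21 and 0.26 in limma) and with only APAP and vehicle arrays (0.14 and 0.17). No member was called without medium replicate 1, 2, 4 or 5 or vehicle replicate 1, 2, 4 or 5, which is 8 of the 10 arrays; 1 was called without vehicle replicate 3 and 3 without medium replicate 3. Among arrays with a title number up to 190 (a number closing each sample's title, of unstated meaning) 12 were called. The 0.0693% belongs to the fit of all arrays and is no background for that count. The members' median was -0.09, 59 of 68 were below 0, and 8 members did not overlap vehicle, against 2.03% of all probe sets. Complex II had a median of -0.24 with no member called; Sdhb stood at 12.31, 12.15, 12.25, 12.01 and 12.21, below every vehicle array. Replicate 4 was lowest of the group, at -0.46 for complex II, and also highest in macrophage markers, at 1.00.

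At the APAP low dose 0 members were called and 0% of all probe sets were, with 1 member at an unadjusted p under 0.05. The members' median was -0.02 and that of complex II -0.10. The first replicate stood at -0.46 for complex II with a macrophage marker shift of 1.08, while the other 4 livers lay between -0.10 and 0.06 for complex II. Without that liver the members' median was 0.02 and that of complex II -0.03. Over the vehicle, low, medium and high groups, a trend linear in dose was called lower for 42 members and higher for 0, where 14.8% of all probe sets were called lower. With only the groups compared 2 members were called, with only APAP and vehicle arrays 25, and after quantile normalization 26. The fitted change from vehicle to the high dose was -0.41 for Sdhb and -0.29 for Ndufv3 (limma adjusted p = 9e-04 for both), -0.33 for Sdha and -0.18 for Ndufb9 (limma adjusted p = 0.0018 and 0.0026).

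The high and medium APAP groups were also compared directly. Only Ndufa12, an accessory subunit of complex I, was called lower at the high dose, where 0.0867% of all probe sets were. Ndufa12 had 10.62, 10.52, 10.56, 10.63 and 10.57 at the high dose and 10.92, 11.02, 10.95, 10.78 and 10.71 at the medium dose, a difference of -0.30 (limma adjusted p = 0.042). The groups did not overlap. A further 23 members had an unadjusted p under 0.05. The count was 0 with only the groups compared, with only APAP and vehicle arrays, after centring, after quantile normalization, and without medium replicate 1, 2, 3 or 5 or high replicate 2, 3 or 5. It was 35 with array weights, 28 without the 3 arrays that stood apart and 13 without medium replicate 4. Without high replicates 1 and 4 it was 21 and 8. The 0.0867% belongs to the fit of all arrays and is no background for the counts of these other fits.

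After 2 days at the APAP high dose, 3 members were still called lower and 0 higher, where 1.63% of all probe sets were called lower. Sdha had 11.16, 11.54, 11.56, 11.49 and 11.36 against 11.64 to 11.72 in the vehicle of the second day and fell by 0.26 (limma adjusted p = 0.041). Ndufs7 had 10.39, 10.59, 10.54, 10.55 and 10.52 against 10.69 to 10.76 and fell by 0.20, and Ndufb9 had 11.92, 12.02, 11.90, 11.99 and 11.98 against 12.05 to 12.16 and fell by 0.15 (limma adjusted p = 0.038 for both). None of the 3 overlapped vehicle; this held for 6 members in all and for 3.37% of all probe sets. The 3 calls were lost with only the arrays compared, with only APAP and vehicle arrays, and after centring arrays on their medians. No member was called without APAP replicate 1 or 5 or vehicle replicate 2, 3, 4 or 5, which is 6 of the 10 arrays; without vehicle replicate 1 the count was 1, and without APAP replicates 2 and 3 it was 5 and 7. The members' median was -0.09 against -0.049 over all probe sets.

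Most members were closer to vehicle at 2 days than at 1 day. The change at 2 days minus that at 1 day was above 0 for 59 of the 68 members, with a median of 0.10, and 1 member passed the test of this difference, where 1.15% of all probe sets were called higher. Ndufv3 stood at 11.94, 11.84, 11.93, 11.88 and 11.91 at 2 days, within or next to the vehicle range of 11.87 to 11.96, and its difference was 0.28 (limma adjusted p = 0.047). That call was lost with only the groups compared (adjusted p = 0.12 in limma). It was also lost without most single arrays (0.13 without replicate 3 or 5 of the first day). Without the 3 arrays that stood apart, 14 members were called higher. The 1.15% belongs to the fit of all arrays and is no background for that count. Sdhb, which had fallen by 0.43 at 1 day, stood at -0.10 and Sdhd at -0.04 at 2 days, both uncalled. Uqcrc1 was at -0.24 and Ndufv1, which binds NADH, at -0.22 at 2 days, both uncalled (adjusted p = 0.15 and 0.07 in limma). Of 13 macrophage markers 10 were called higher at 2 days, with a median change of 1.53 against 0.95 at 1 day. With the vehicle arrays of both days, 8.21% of all probe sets were called at 2 days in either direction. That share came from another fit than the marker counts, for which no share called higher is given. Of 10 neutrophil markers 0 were called at 2 days, with 4 at an unadjusted p under 0.05 and a median of 0.27 against 0.75 at 1 day, and S100a8 stood at 2.24 (adjusted p = 0.13 in limma). These differences between the days were not tested, nor was their part in the result.

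After isoniazid, 0 members were called in any of the 4 groups. The share of all probe sets called was 0% at the low dose, 0% at the medium dose, 0.0231% at the high dose after 1 day and 0% after 2 days, and 1 member in each group had an unadjusted p under 0.05. The members' medians were -0.02, -0.02, -0.01 and -0.03 in this order. At the high dose the 3 smallest p-values belonged to Cox6a2 (a change of -0.22), Ndufa11 (-0.10) and Ndufs6 (-0.09) at 1 day and to Cox4i2 (0.18), Atp5j2 (-0.08) and Cox4i1 (-0.07) at 2 days, all with an adjusted p of 1 in limma. Sdhb stood at 12.27, 12.44, 12.44, 12.45 and 12.44 at the high dose after 1 day, the first replicate below the vehicle values of 12.41 to 12.50 and the other 4 among them. The dose trend called 0 members and 0.00578% of all probe sets, with 0 members at an unadjusted p under 0.05, and 2 days minus 1 day called 0 members and 0% of all probe sets, with 1 member at that p.

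APAP high and isoniazid high at 1 day, which differ in compound and dose, were compared directly. At APAP high 36 members were lower and 0 higher, where 11.9% of all probe sets were called lower. Complex I had 21 of 34 members called, complex II 4 of 4, complex III 5 of 6, complex IV 1 of 15 and complex V 5 of 9. Sdhb differed by -0.40, Ndufs1 by -0.45, Ndufb10 by -0.39 and Ndufv3 by -0.26 (limma adjusted p = 0.00085, 0.0018, 0.0018 and 0.0012). With only these 10 arrays 0 members and 0 probe sets were called, and 18 members were called after quantile normalization.

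After paraquat, 0 members and 0% of all probe sets were called at the low dose, the medium dose, the high dose after 1 day and the high dose after 2 days. Members with an unadjusted p under 0.05 numbered 2, 0, 7 and 1. At the high dose after 1 day the members' median was -0.07 and 60 of 68 were below 0, with complex II at -0.16. Sdha had 11.23, 11.62, 11.59, 11.38 and 11.64 against 11.63 to 11.80 in vehicle, a difference of -0.19, and Sdhb had 11.83, 12.37, 12.38, 12.32 and 12.44, a difference of -0.18; Ndufs7 stood at -0.14 (limma adjusted p = 0.78 for all 3). The first replicate was the lowest for both genes, with replicate 4 next, and stood at -0.50 for complex II with a macrophage marker shift of 1.21. Without it the members' median was -0.04 and that of complex II -0.06. At 2 days the median was -0.03, and the 3 smallest p-values belonged to Atp5b, Uqcr10 and Atp5d, at -0.14, -0.14 and -0.08 (adjusted p of 1 in limma). The dose trend and 2 days minus 1 day each called 0 members and 0% of all probe sets, with 6 members and 1 member at an unadjusted p under 0.05.

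APAP high and PQ high at 1 day did not differ at the threshold in any member, although 64 of 68 were lower at APAP high, with a median of -0.12. Here 0.387% of all probe sets were called, and 27 members had an unadjusted p under 0.05, with a smallest adjusted p of 0.05. This count depended on the arrays used. Leaving out 1 array at a time, 0 to 27 members were called. At APAP high, 40 members were called lower without the 3 arrays that stood apart and 42 with array weights. Among arrays with a title number up to 190 the count was 43. The share of 0.387% belongs to the fit of all arrays and is no background for these counts. The vehicle livers of the 2 days differed in 0 members and in 0% of all probe sets, with 2 members at an unadjusted p under 0.05.

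Genes that build or feed the chain were read at the APAP high dose after 1 day, where 15.3% of all probe sets were called lower and 14.8% higher. Of 14 complex I assembly factors 6 fell and 0 rose, among them Ndufaf6, Ndufaf1 and Ndufaf3 by 0.53 ± 0.12, 0.39 ± 0.09 and 0.31 ± 0.08 (limma adjusted p = 0.0013, 0.0023 and 0.0039). Ndufaf4 fell by 0.52 ± 0.15 (limma adjusted p = 0.0083). The uncalled factors ran from -0.22 for Timmdc1 to 0.08 for Ndufaf2. For complex II 1 of 4 assembly factors fell (Sdhaf4, -0.23), for complex III 3 of 5 (Uqcc1 at -0.30, Uqcc3 and Bcs1l), and for complex V 0 of 2, at 0.01 and 0.03. For complex IV 5 of 18 fell, led by Cmc1 at -0.39, Cmc2 at -0.26 and Cox11 at -0.42, a factor that delivers copper. In the same list 1 rose, Cox15 at 0.24, which acts in heme A synthesis.

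Of 11 genes for coenzyme Q, the carrier between complexes I or II and III, 5 fell and 0 rose. Coq8a fell by 1.54 ± 0.33 from 8.64 ± 0.15 to 7.10 ± 1.10, Coq10a by 0.83 ± 0.20 and Coq9 by 0.39 ± 0.09 (limma adjusted p = 0.0011, 0.002 and 0.0017). Of 15 enzymes of the tricarboxylic acid cycle and the complexes that feed it, which supply NADH to complex I, 9 fell and 0 rose, with a median of -0.22. Pyruvate dehydrogenase genes Dlat and Pdhb fell by 0.71 ± 0.16 and 0.59 ± 0.14 and isocitrate dehydrogenase gene Idh3b by 0.36 ± 0.09 (limma adjusted p = 0.0014, 0.0017 and 0.0033), while citrate synthase Cs (-0.05), fumarase Fh1 (0.03) and malate dehydrogenase Mdh2 (0.06) were not called. At 2 days 1 of 14 complex I assembly factors, 1 of 11 coenzyme Q genes and 2 of 15 cycle genes were called lower and 0 higher. Of all probe sets, 1.63% were called lower at 2 days.

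Of 17 regulators of mitochondrial gene expression, 4 fell and 0 rose at the APAP high dose after 1 day, where 15.3% of all probe sets were called lower. Ppargc1b, a coactivator of respiratory chain genes, fell by 1.61 ± 0.34 from 8.70 ± 0.24 to 7.09 ± 1.21, and its partner receptor Esrra fell by 0.58 ± 0.17 (limma adjusted p = 0.001 and 0.0088). Polg2 and Polg, which encode the polymerase of mitochondrial DNA, fell by 1.08 ± 0.25 and 0.25 ± 0.08 (limma adjusted p = 0.0017 and 0.014). The related coactivator Ppargc1a (-0.48, adjusted p = 0.092 in limma), Tfam (-0.16), the factors Nrf1 (0.04) and Gabpa (0.10) and Yy1 (0.10) were not called. At 2 days Ppargc1b stood at -0.38 and was not called, and Gabpa fell by 0.30 (limma adjusted p = 0.047), the only call of this list. At the high dose of INZ after 1 day the medians of the assembly, coenzyme Q, cycle and regulator lists lay between -0.00 and 0.05, and at that of PQ between -0.15 and 0.05, with 0 of their 86 genes called and 5 and 10 at an unadjusted p under 0.05.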

How the data were processed

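RNA from liver was measured on Affymetrix arrays, 1 per mouse, in 69 samples. Per the submitters' processing notes, the authors processed the arrays with RMA; the deposited values, from 1.87 to 14.34, were read as log2 signals per probe set, and no further normalization was applied. The annotation gave 16464 of 17306 probe sets 1 symbol, 842 none and 0 several, and all 68 members matched a RefSeq gene ID with the same symbol.

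With limma 3.58.1 (R 4.3.3), a mean per group was fitted to the 69 arrays together (55 residual and 3.5 prior degrees of freedom). Tests were two-sided, with Benjamini-Hochberg adjustment over all probe sets and calls at an adjusted p under 0.05; by chance about 865 probe sets reach an unadjusted p under 0.05. ± after a mean is the SD over mice and after a change the SE. Nothing in the labels ties mice to litters or batches. Title numbers, 97 to 208, have no stated meaning; 58 arrays carry a number up to 190. The number of arrays limits the precision, and no depth applies.

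The members and lists were chosen with earlier results of these data known. Members were named where they had, per complex, the 4 smallest adjusted p-values or the largest uncalled change at APAP high after 1 day. They were also named where called elsewhere, in sets of isoforms, or with the 3 smallest p-values of a high INZ or PQ dose. Per list of assembly, coenzyme Q, cycle, regulator and stress response genes, those with the 3 smallest adjusted p-values among called genes were named. Ppargc1a, Nrf1, Tfam and Cycs were named as well. Other genes named were chosen after their values were seen. Alternatives, such as leaving out 1 array at a time, are given in the closing section. Fits were checked on simulated data with the same spread in every group, so the check does not cover the wider spread of the APAP high livers. Plots used matplotlib 3.10.9, numpy 2.4.6 and pandas 2.3.3 in Python 3.11.15.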

Additional observations from a re-analysis of the deposited data

Results flagged for a closer look

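Of 84 sets of member medians per group, 9 held an array far from the others of its group by Dixon's test, as did 2 of 49 sets of values of named members; chance gives about 1 in 20. In APAP low, replicate 1 stood at -0.17 over all members and at -0.17 in complex I (the others from -0.01 to 0.04 in both) and at -0.28 in complex III (the others from 0.03 to 0.06). In APAP medium, replicate 4 stood at -0.27 in complex III (the others from -0.11 to -0.08), and replicate 1 at 0.07 in complex IV (the others from -0.10 to -0.07) and at 0.08 in complex V (the others from -0.15 to -0.09). In PQ high at 1 day, replicate 1 stood at -0.26 in complex I (the others from -0.05 to 0.03) and at -0.50 in complex II (the others from -0.12 to -0.02). In INZ high at 1 day, replicate 1 stood at -0.11 in complex II (the others from -0.01 to 0.02).

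Ndufb9 had 12.14 in replicate 1 of APAP high at 1 day, where the other 4 arrays lay from 11.84 to 11.88. Uqcrc2 had 11.69 in replicate 4 of vehicle at 1 day, where the others lay from 11.82 to 11.85. The change of Ndufv3 at APAP high differed between the days, by 0.28 (limma adjusted p = 0.047).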

How the results depend on the processing

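No paired analysis was possible because the replicate numbers follow the order of the records and tie no mice together. All counts are members called, and the share of all probe sets called in the same fit is mostly not given. A count that rises or falls here is therefore no evidence of a change particular to the members. With only the arrays compared, 0 were called in the APAP medium, APAP high (both days), 2 days minus 1 day, APAP against INZ and high against medium comparisons, and 2 in the APAP trend; with only the arrays of the compound and vehicle, 28 for APAP high at 1 day, 25 for the trend and 0 for APAP medium, APAP high at 2 days, 2 days minus 1 day and high against medium. With array weights the counts were 4 for APAP medium, 12 for APAP high at 2 days, 22 for 2 days minus 1 day, 42 for APAP against PQ and 35 for high against medium. Centred on array medians, they were 0 for APAP high at 2 days, 2 days minus 1 day and high against medium and 1 for APAP against PQ. That centring moved the APAP high change at 1 day over all probe sets from -0.045 to -0.136, the members' median to -0.28 and the lower calls over all probe sets to 4854 of 6741 (as reported, 2648 were lower and 2559 higher). It moved the median of complex IV at 2 days to -0.09. Quantile normalization gave 1 for APAP medium, 27 for APAP high at 1 day, 26 for the trend, 0 for 2 days minus 1 day and for high against medium and 18 for APAP against INZ.

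Without dim probe sets (62 members kept) the counts were 5 for APAP high at 2 days and 8 for APAP against PQ. Among arrays with a title number up to 190 they were 12 for APAP medium, 1 for APAP high at 2 days, 14 for 2 days minus 1 day, 43 for APAP against PQ and 2 for high against medium. Without the 3 arrays that stood apart they were 8, 7, 14, 40 and 28 in this order. These 3 arrays were chosen without a stated rule, and other arrays flagged by Dixon's test were kept. With the vehicle arrays of both days the counts were 5 for APAP medium and 6 for APAP high at 2 days. Leaving out 1 array at a time, the counts ranged from 0 to 3 for APAP medium, 24 to 49 for APAP high at 1 day, 0 to 7 at 2 days, 31 to 45 for the trend, 0 to 10 for 2 days minus 1 day, 20 to 40 for APAP against INZ, 0 to 27 for APAP against PQ and 0 to 21 for high against medium. The cause was not tested, beyond the fewer arrays of the smaller fits. For single named members 1106 results kept their side of the threshold, and uncalled ones among them may have changed sign. A further 20 passed it newly, 0 changed sign while called in either fit, and the rest no longer passed. No depth applies to arrays, and dim probe sets limit the 6 members below the array medians.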

Other observations

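At the APAP high dose after 1 day, 15.3% of all probe sets were called lower and 14.8% higher. Of 9 genes of the mitochondrial stress response, 5 rose and 0 fell: the transcription factors Atf5, Ddit3 and Atf4 by 0.55 ± 0.15, 0.96 ± 0.27 and 0.28 ± 0.10, the matrix protease subunit Clpx by 0.75 ± 0.21 and the hormone Fgf21 by 0.77 ± 0.30 (limma adjusted p = 0.0048, 0.0061, 0.028, 0.006 and 0.047). The probe set of Fgf21 was dim, at 3.06 ± 0.31 in vehicle and 3.83 ± 0.51 after APAP, below the array medians, and at 3.47 ± 0.59 in vehicle of the second day. The chaperone gene Hspa9 (-0.07) and the protease gene Lonp1 (-0.10) were not called. At 2 days 0 of the 9 were called and 3 had an unadjusted p under 0.05, with Atf5 at -0.03 and Clpx at 0.02. Of 41 genes of the mitochondrial ribosome, which translates the core subunits encoded in mitochondrial DNA, 6 rose and 6 fell, shares near those of all probe sets, with a median of -0.02. Mrpl21 rose by 0.40 ± 0.09 and Mrpl14 fell by 0.50 ± 0.13 (limma adjusted p = 0.0016 and 0.0027). At 2 days 4 of the 41 fell and 0 rose, led by Mrpl1 at -0.27 ± 0.06 (limma adjusted p = 0.0045), where 1.63% of all probe sets were called lower.

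Of 6 genes of transport across the mitochondrial membranes, the ADP and ATP carrier Slc25a4 rose by 0.73 ± 0.23 at 1 day and by 0.87 ± 0.23 at 2 days (limma adjusted p = 0.014 and 0.018), and the import motor gene Timm44 fell by 0.28 ± 0.09 at 1 day (limma adjusted p = 0.016). The phosphate carrier Slc25a3 and the outer membrane channels Vdac1 and Vdac2 were not called at 1 day, at 0.01, -0.18 and 0.10. At 2 days Atpif1, an inhibitor of complex V, rose by 0.58 ± 0.14 and Cycs, cytochrome c, fell by 0.45 ± 0.12 (limma adjusted p = 0.0072 and 0.023); the probe set of Cycs was dim, at 4.48 ± 0.11 in vehicle. With the vehicle arrays of both days, 8.21% of all probe sets were called at 2 days in either direction. That share came from another fit than the calls at 2 days given here, for which no share called higher is given. At 2 days 6 of 12 stellate cell and matrix markers rose in the same livers, Col1a2 by 3.23 ± 0.37 (limma adjusted p = 3.5e-08). The part of these markers in the values above was not tested.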
